A study of Mus musculus with 2 samples.

Results

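The genes described are the constant regions of mouse antibody chains together with Jchain, 10 of the 32285 genes measured. They were chosen by symbol: the light chain genes Igkc, Iglc1, Iglc2 and Iglc3, the heavy chain genes Ighm, Ighd, Igha, Ighg1 and Ighg2b, and Jchain. All 10 were present in the gene table under those names. They were counted in single cells sorted from inflamed mouse gingiva, the gum tissue around the teeth, in 1 library from diabetic and 1 library from normoglycemic mice. The diabetic mice had been made diabetic with streptozotocin, which kills the insulin-producing cells of the pancreas, as a model of type 1 diabetes. Both groups carried the genotype CD11CCre-/-;FoxoLL on a mixed C57B6 - FVB background: loxP sites flank an exon of Foxo1, no Cre recombinase is present to remove it, and Foxo1 protein is normal per the series description. Bacterially induced inflammation lasted 2 weeks and was followed by 2 weeks of waiting, for both groups per the labels. Each library pooled the gingival cells of 4 mice, without replicates. Sorting discarded dead (DAPI+), endothelial (CD31+) and red blood (Ter-119+) cells, kept CD45+ leukocytes and enriched CD11c+ cells by 20%, and no gate was aimed at B cells or plasma cells.

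An antibody is built from heavy chains and light chains, and the constant region of its heavy chain sets its isotype. Naive B cells carry IgM and IgD on their surface, made from 1 transcript by alternative splicing, and activated B cells can switch by DNA recombination to IgG or IgA. Each B cell normally uses either kappa (Igkc) or lambda (Iglc1, Iglc2, Iglc3) light chains, and most mouse B cells use kappa. Plasma cells, the end stage of B cells, devote much of their RNA to the secreted form of a single antibody. J chain, encoded by Jchain, links IgA or IgM units into polymers, which the receptor encoded by Pigr carries across epithelia. IgA is the main antibody of mucosal secretions and saliva.

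Sequences of the tails of 3 heavy chains are shown because they bear on J chain, which bonds to the cysteine before the last amino acid of secreted IgA and IgM. Each line gives the last coding bases and the stop codon of the secreted transcript from the GENCODE M21 annotation of build GRCm38, 5′ to 3′ on the minus strand, with the cysteine codon in capitals. The stretches lie within the heavy chain locus, in coding exon sequence, at chr12:113258768-113258830 for Igha, chr12:113420867-113420929 for Ighm and chr12:113306389-113306451 for Ighg2b.
Igha: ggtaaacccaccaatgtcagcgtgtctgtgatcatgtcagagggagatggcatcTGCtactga
Ighm: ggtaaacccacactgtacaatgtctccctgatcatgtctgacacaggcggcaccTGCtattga
Ighg2b: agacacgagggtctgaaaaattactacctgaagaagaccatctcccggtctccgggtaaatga
The Ighg2b tail has no cysteine codon at that place.

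The ends of the lambda genes are shown because the counts of Iglc2 and Iglc3 may not be fully separable. They lie at chr16:19061752-19061814, chr16:19198536-19198598 and chr16:19065365-19065427 in the order of their numbers, in coding exon sequence on the minus strand, and capitals mark the 14 of 63 positions at which the sequences are not all identical.
Iglc1: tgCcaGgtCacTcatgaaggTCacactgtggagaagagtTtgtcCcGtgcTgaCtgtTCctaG
Iglc2: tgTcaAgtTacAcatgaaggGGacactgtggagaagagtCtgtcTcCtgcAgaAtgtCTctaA
Iglc3: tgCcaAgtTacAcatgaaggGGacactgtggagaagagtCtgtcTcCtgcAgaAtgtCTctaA
Iglc2 and Iglc3 were identical at 96.2% of aligned coding positions and at 90.7% over their last 200 transcript bases, against 73.3% and 58.0% for Iglc1 and Iglc2. Ighg2b and Ighg2c shared 85.6% of coding positions. The split of counts between Iglc2 and Iglc3, and between Ighg2b and Ighg2c, is therefore uncertain, and lambda genes are also summed. Igkc lies at chr6:70726435-70726966 on the plus strand and Jchain at chr5:88519809-88527891 on the minus strand. The lincRNA Gm30211 overlaps Igkc and Iglj2 overlaps Iglc2, each on the same strand, so reads of these pairs could not be told apart. The antisense gene 2010309G21Rik overlaps Iglc1 and Iglc3 on the opposite strand.

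The diabetic matrix held 10496 barcodes with 78220582 gene UMIs (unique molecular identifiers, each standing for 1 captured RNA molecule) and the normoglycemic matrix 11280 barcodes with 89339733 UMIs, where 10000 cells had been loaded per lane. After filtering, 10260 diabetic cells with a median of 4631.5 UMIs and 10948 normoglycemic cells with a median of 5302.5 UMIs were analysed. The libraries shared 31 barcodes among these cells, none of them in a cell dominated by antibody RNA as described below. Cells with stromal, epithelial, muscle or Schwann cell markers, which a CD45 gate should remove, made up 8.996% of the diabetic cells (95% interval 8.45 to 9.57) and 0.749% of the normoglycemic cells (0.596 to 0.929). Cell classes are called "-like" because they were rebuilt from marker genes, without antigen receptor genes in the clustering. All intervals are exact or, for differences of shares, Newcombe 95% intervals and cover counting error only. Each condition had 1 library, so there was no replicate spread to set a difference against and no test was made. Differences between pools of mice cannot be told apart from differences between conditions.

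The 10 genes took 0.303% of all UMIs in the diabetic library and 0.0718% in the normoglycemic library. In the diabetic library, 12 cells supplied 94.6% of the genes' UMIs, whereas in the normoglycemic library 3 such cells supplied 54.2% and the other cells with a Cd79a UMI 36.9%. Igha counted 47764 UMIs in the diabetic against 1209 in the normoglycemic library, and Ighg2b counted 328 against 10981. The leading switched isotype was thus IgA in the diabetic and IgG2b in the normoglycemic library. The cells that carried them fall into 3 sets: cells with over 20% of their UMIs from the 10 genes, other cells with a UMI of Cd79a (a signalling chain of the B cell antigen receptor), and cells with neither.

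Cells with over 20% of UMIs from the 10 genes expressed IgA in the diabetic and IgG2b in the normoglycemic library, with no exception among 15 cells. They numbered 12 of 10260 diabetic cells (0.117%, 0.0604 to 0.204) and 3 of 10948 normoglycemic cells (0.0274%, 0.00565 to 0.0801), which differ by 0.0896 percentage points (0.0166 to 0.179). All 12 diabetic cells were called IgA (100%, 73.5 to 100), and all 3 normoglycemic cells IgG2b (100%, 29.2 to 100). All 15 used kappa. The 20% threshold fell in a gap: the diabetic cells started at 24.2% and the next diabetic cell had 5.02%, and the normoglycemic cells started at 50.9% and the next 4 had 9.88%, 8.19%, 6.54% and 6.28%. The bars of gene shares by cell show both sets.

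**Figure D1:**
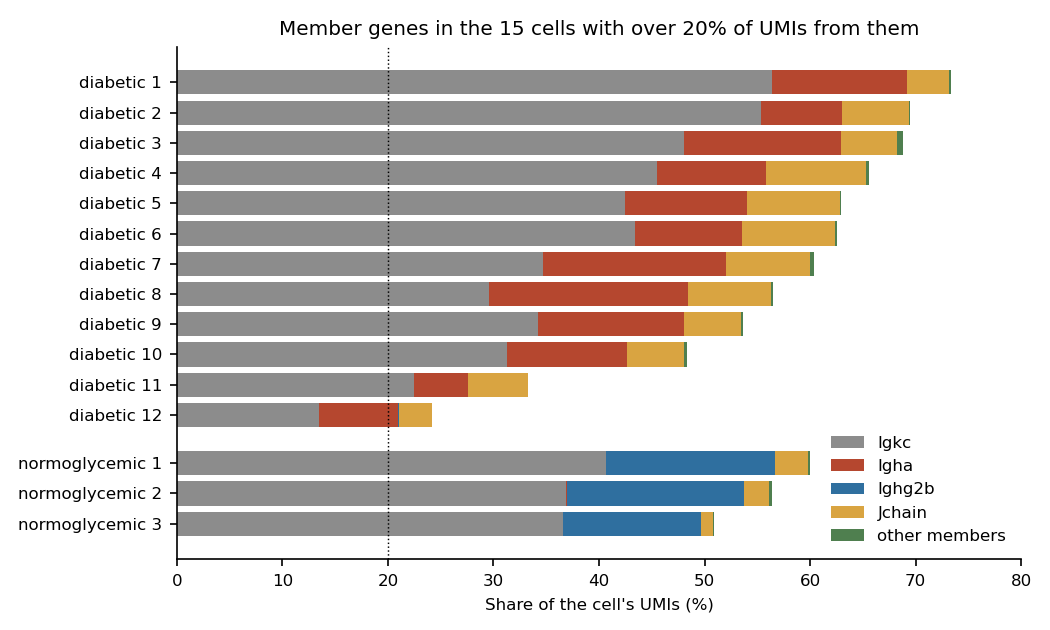
Each bar is 1 of the 15 cells with over 20% of UMIs from the 10 genes (member genes), diabetic cells above normoglycemic cells, and its colours give the share of the cell's UMIs from each gene in percent. The dotted line is the 20% threshold. Red Igha segments fill the heavy chain part of all 12 diabetic cells and blue Ighg2b segments that of all 3 normoglycemic cells.

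Igha ran at 1692 to 7605 UMIs per diabetic cell with a median of 3045, against 0, 16 and 1 UMIs in the normoglycemic cells. Ighg2b was at 24, 10 and 10 UMIs in 3 diabetic cells and at 0 in the other 9, against 1933, 4548 and 3099 UMIs in the normoglycemic cells. Neither gene's ranges overlapped between the libraries. Both genes were part of the sum that chose the cells, and the share of all genes that also separate 12 from 3 cells is not given here. Within a cell, the leading isotype held 99.4% to 100% of heavy chain UMIs in diabetic cells and 99.6% to 100% in normoglycemic cells, so each cell carried 1 isotype almost alone. Ighm and Ighd, the genes of unswitched B cells, were at 0 in 11 of 12 diabetic cells, with 10 and 1 UMIs in the other one, and at 0 in all 3 normoglycemic cells. Ighg1 was at 0 in all diabetic cells and reached 13 UMIs in 1 normoglycemic cell.

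Igkc, the kappa constant region, ran at 3057 to 19729 UMIs in diabetic cells with a median of 11970.5, against 4917, 9984 and 8683 UMIs in normoglycemic cells. The ranges overlapped, and over the summed cells Igkc held 374716 counts per 1000000 UMIs (CPM) in diabetic and 374980 CPM in normoglycemic cells. Kappa made up 98.8% to 99.8% of light chain UMIs in diabetic cells and 99.4% to 99.9% in normoglycemic cells. Lambda constant region UMIs were nevertheless present in every one of the 15 cells, led in the diabetic cells by Iglc2 with 3 to 90 UMIs. Because each UMI is read near the 3′ end of a transcript, counts of different genes are compared per molecule and without division by length. Light chain molecules outnumbered heavy chain molecules 1.58 to 7.20 times in diabetic cells (median 3.47) and 2.20 to 2.79 times in normoglycemic cells.

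Jchain was higher in the diabetic cells. It ran at 712 to 3197 UMIs per diabetic cell with a median of 2277.5, against 381, 639 and 285 UMIs in normoglycemic cells. In UMI counts every diabetic cell thus lay above every normoglycemic cell, but depth differed between cells. As a share of the cell's UMIs the sets met: 1 diabetic cell had 712 of 22612 UMIs and 1 normoglycemic cell 381 of 12096 UMIs. Per 100 heavy chain UMIs, Jchain was at 30.5 to 108 in the diabetic cells with a median of 46.8, against 19.7, 14.0 and 9.16 in the normoglycemic cells. Over the summed cells the Jchain level was 64216 CPM in diabetic and 20749 CPM in normoglycemic cells (ratio 3.10, 2.93 to 3.27). Jchain was thus abundant both beside Igha, whose tail carries the cysteine codon shown above, and, at a lower level, beside Ighg2b, whose tail does not.

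The variable segments with the most UMIs, which the selection did not use, mostly differed from cell to cell. Their counts were low beside those of the constant regions, down to 12 Ighv1-53 UMIs beside 2749 Igha UMIs in 1 called diabetic cell. A leading segment may therefore not be the one the cell expressed. A leading heavy chain segment could be called in 8 diabetic cells and was different in each. It could be called in all 3 normoglycemic cells, of which 2 shared Ighv5-6. Of the cells with both a heavy and a light chain segment called, 6 diabetic and 1 normoglycemic, no pair of cells shared both segments. Some of these diabetic cells had the lambda segment Iglv1 as their light chain call. Xist, the RNA that silences 1 X chromosome in females, was found without Y-linked UMIs in 9 diabetic cells and 1 normoglycemic cell, and Y-linked UMIs without Xist in 1 diabetic and 1 normoglycemic cell. Iglv1, a lambda variable segment, was present at up to 254 UMIs in 11 of the 12 diabetic cells and was the leading light chain segment in 4 of them, although Igkc held nearly all of their constant region UMIs.

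Other genes of plasma cells accompanied the antibody genes. Of 20 genes of the plasma cell secretory program, the diabetic cells had UMIs of 16 to 20 (median 19.5) and the normoglycemic cells of 17 to 19. Levels were then summed over the cells and compared with the other Cd79a cells of the same library, per 1000000 UMIs outside antigen receptor genes. Of the secretory program genes, 20 of 20 were at least 1.5-fold higher in the diabetic library, where 34.7% of 8330 genes were higher and 30.1% lower, and 18 of 19 in the normoglycemic library, where 33.0% of 7828 genes were higher and 50.7% lower. None of them was at least 1.5-fold lower. Their median log2 ratio was 4.19 in the diabetic and 4.09 in the normoglycemic library, against 0.19 and 0.37 over all genes. Of 16 B cell identity genes, 1 was higher and 13 lower in the diabetic cells, and 2 were higher and 12 lower in the normoglycemic cells. These contrasts describe cells chosen by their antibody RNA and are not tests. Derl3, which exports misfolded proteins from the endoplasmic reticulum, was at 124 (46.5 to 469) times its level in other Cd79a cells of the diabetic library and at 102 (51.1 to 204) times in the normoglycemic library. Xbp1, the transcription factor of the secretory program, was at 26.5 (21.0 to 33.7) and 16.8 (12.3 to 22.6) times. Mzb1, a chaperone of antibody assembly, was at 12.3 (10.9 to 14.0) and 35.6 (31.3 to 40.4) times. The genes leading in both libraries were Ly6c2, a surface protein also found on monocytes and plasma cells, the endoplasmic reticulum genes Prdx4, Fkbp2, Ssr4, Edem2, Sec11c and Fkbp11, Xbp1, Tent5c and Slpi, a secreted protease inhibitor. Ly6c2 was at 50.4 (36.1 to 72.0) and 109 (70.4 to 169) times its level in other Cd79a cells, and Slpi at 14.1 (12.9 to 15.4) and 50.4 (46.8 to 54.3) times.

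The diabetic and normoglycemic cells differed in these genes in both directions. Tnfrsf17, which encodes the plasma cell survival receptor BCMA, had 71 UMIs spread over 11 of 12 diabetic cells and 0 in the 3 normoglycemic cells. Txndc5, a protein disulfide isomerase, had 428 UMIs over the 12 diabetic cells and 4 UMIs over the 3 normoglycemic cells, or 2464 and 143 per 1000000 UMIs outside antigen receptor genes. Other secretory program genes were higher in the normoglycemic cells. On the same scale, diabetic and normoglycemic cells had Mzb1 at 4081 and 11634, Hsp90b1 at 3183 and 8565 and Fkbp11 at 294 and 1178. Cd79a, a B cell gene that plasma cells can keep, was present in all 15 cells at 5 to 36 UMIs in diabetic and at 114, 29 and 6 UMIs in normoglycemic cells. Pax5, which holds B cell identity, was at 0 in all 15, and Ms4a1, the gene of the B cell surface protein CD20, had 3 UMIs in 1 diabetic cell and 7 in 1 normoglycemic cell. None of the 15 genes marking T or NK cells was detected in most cells of either set, and 13 of 15 in the diabetic and all 15 in the normoglycemic cells were at 0. Myeloid markers were less often absent. Of 10 neutrophil markers, 4 in the diabetic and 5 in the normoglycemic cells were at 0, and of 10 macrophage markers 1 and 7. Summed, the neutrophil markers were at 180 CPM in diabetic and 334 CPM in normoglycemic cells, and the macrophage markers at 323 and 2290 CPM. Median depth was 31766.5 UMIs in the diabetic and 23737 UMIs in the normoglycemic cells. The 3 normoglycemic cells were among the highest doublet scores of their library (0.280 each), and all of them, but none of the 12 diabetic cells, were lost when the highest scores up to the expected doublet rate were removed.

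Outside these cells, Cd79a marked fewer cells in the diabetic library, and both libraries used mainly unswitched IgM and IgD with kappa. A Cd79a UMI was found in 180 further diabetic cells (1.75%, 1.51 to 2.03) and 384 normoglycemic cells (3.51%, 3.17 to 3.87), a difference of -1.75 points (-2.18 to -1.33). Median depth was 4547.5 UMIs in diabetic and 5108 UMIs in normoglycemic Cd79a cells, those over 20% left out. As a background, 5 of 4831 diabetic and 24 of 5277 normoglycemic neutrophil-like cells, which should lack the gene, had a Cd79a UMI at median depths of 3414 and 3991 UMIs. The cluster with B cell markers held 151 of the 180 diabetic and 313 of the 384 normoglycemic cells. In the median Cd79a cell, 0.659% of UMIs came from the 10 genes in the diabetic and 0.674% in the normoglycemic library, and the scatter of these shares shows the wide gap to the cells over 20%.

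**Figure D2:**
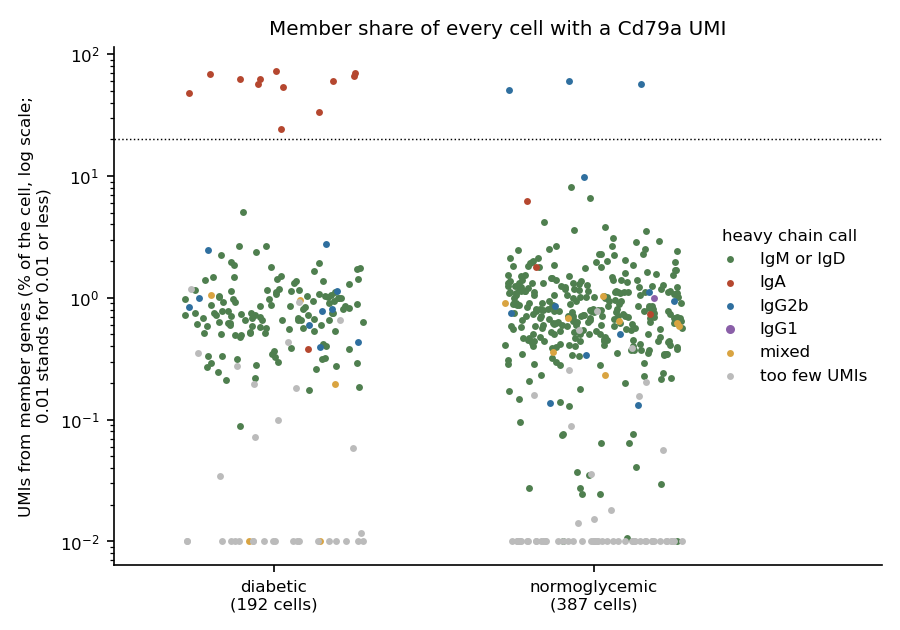
Each point is 1 cell with a Cd79a UMI, diabetic on the left and normoglycemic on the right, at its share of UMIs from the 10 genes (member genes) in percent on a log axis, coloured by heavy chain call. The dotted line is the 20% threshold. Above it lie 12 diabetic IgA cells and 3 normoglycemic IgG2b cells, and below it most cells of both libraries are IgM or IgD.

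A heavy chain was called where a cell had at least 2 heavy chain UMIs with at least 80% from 1 isotype, counting Ighm and Ighd as 1. IgM or IgD was called in 131 of 147 diabetic cells (89.1%, 82.9 to 93.6) and 303 of 324 normoglycemic cells (93.5%, 90.3 to 95.9), a difference of -4.40 points (-10.9 to 0.791). IgG2b was called in 10 diabetic cells (6.80%, 3.31 to 12.2) and 9 normoglycemic cells (2.78%, 1.28 to 5.21), a difference of 4.02 points (0.121 to 9.45). Among Cd79a cells IgG2b was thus the most frequent switched isotype in both libraries, while IgA was rare in both. IgA was called in 1 diabetic cell (0.680%, 0.0172 to 3.73) and 3 normoglycemic cells (0.926%, 0.191 to 2.68). IgG1 was called in 0 of 147 diabetic cells (0%, 0 to 2.48) and 1 normoglycemic cell (0.309%). The remaining 5 diabetic and 8 normoglycemic cells were mixed, and 33 diabetic and 60 normoglycemic cells had too few UMIs for a call.

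Cells with both Ighm and Ighd, the pair of mature naive B cells, numbered 114 of 180 diabetic cells (63.3%, 55.8 to 70.4) and 264 of 384 normoglycemic cells (68.8%, 63.9 to 73.4). Ighm without Ighd was found in 28 diabetic and 50 normoglycemic cells, and Ighd without Ighm in 3 and 7. Per 100 Ighm UMIs there were 42.8 Ighd UMIs in diabetic and 29.96 in normoglycemic Cd79a cells, and 44.7 and 38.6 without the 1 diabetic and 4 normoglycemic cells that had over 5% of their UMIs from the 10 genes. One of those, a normoglycemic cell in a macrophage-like cluster, held 868 of the library's 3979 Ighm UMIs in Cd79a cells. Jchain had UMIs in 7 of 10 diabetic and 5 of 9 normoglycemic IgG2b cells, but in 2 of 131 diabetic and 4 of 303 normoglycemic IgM or IgD cells. Among IgA cells it was found in 0 of 1 diabetic and 2 of 3 normoglycemic cells, and it was found in the 1 normoglycemic IgG1 cell. Some IgG2b cells were far deeper than the median Cd79a cell, with up to 34834 UMIs in diabetic and 38247 UMIs in normoglycemic cells. Depth was not matched in these counts.

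**Figure D3:**
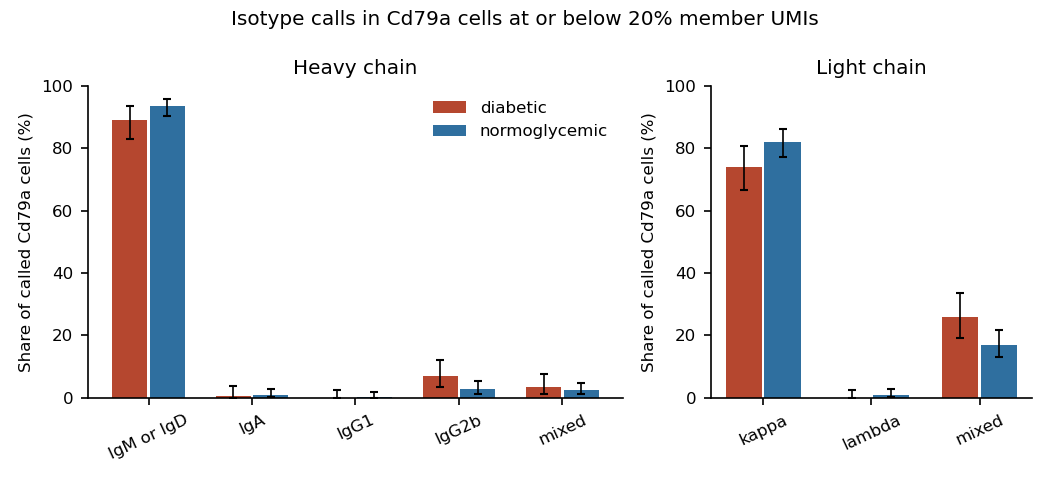
Bars give the share of called Cd79a cells (at most 20% of UMIs from the 10 genes, here member UMIs) with each heavy chain (left panel) and light chain (right panel) call in percent, diabetic left of normoglycemic, with Clopper-Pearson 95% intervals. IgM or IgD and kappa lead in both libraries, and mixed light chains reach 25.9% of diabetic and 17.03% of normoglycemic cells.

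Kappa was called in 117 of 158 diabetic cells (74.1%, 66.5 to 80.7) and 260 of 317 normoglycemic cells (82.0%, 77.3 to 86.1), a difference of -7.97 points (-16.3 to -0.241). No diabetic cell was called lambda (0%, 0 to 2.31), and 3 normoglycemic cells were (0.946%, 0.196 to 2.74), led by Iglc1 in 1 and Iglc2 in 2. The rest was mixed: 41 diabetic (25.9%, 19.3 to 33.5) and 54 normoglycemic cells (17.03%, 13.1 to 21.6) had under 80% of their light chain UMIs from either type. In 37 of the 41 diabetic and 47 of the 54 normoglycemic mixed cells kappa exceeded lambda, with medians of 15 Igkc beside 7 lambda UMIs in diabetic and 19 beside 9 in normoglycemic cells. Iglc2 gave most of the lambda UMIs of mixed cells, 272 beside 96 of Iglc1 and 118 of Iglc3 in the diabetic library and 338 beside 140 and 158 in the normoglycemic library. Even among cells called kappa, 85 of 117 diabetic and 198 of 260 normoglycemic cells carried a lambda UMI. In neutrophil-like cells, by contrast, Iglc2 had 9 UMIs over 4826 diabetic and 5 UMIs over 5253 normoglycemic cells. Whether the mixed cells held RNA of both types or reads shared between loci was not tested.

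Summed over Cd79a cells, none of the 9 genes with at least 10 CPM was at least 1.5-fold higher in the diabetic library and 4 were lower, where 10.6% of the 7711 genes measured were higher and 16.5% lower. The median log2 ratio of the 9 genes was -0.33, against -0.07 over all genes. These counts rested on few cells: without the 1 diabetic and 4 normoglycemic cells over 5%, 2 of the 9 genes were at least 1.5-fold higher (Ighg2b and Jchain) and 1 lower (Ighm). Igkc was at 4086 CPM in diabetic and 4758 CPM in normoglycemic cells (ratio 0.859, 0.831 to 0.887), but at 4049 and 3483 CPM without those cells (1.16, 1.12 to 1.20). Ighm was at 770 CPM in diabetic and 1380 CPM in normoglycemic cells (0.558, 0.519 to 0.599), and Ighd at 329 and 413 CPM (0.796, 0.709 to 0.892). Iglc2, at 366 CPM in diabetic and 292 CPM in normoglycemic cells (1.25, 1.11 to 1.41), and Iglc3, at 201 and 163 CPM (1.23, 1.05 to 1.44), lay on the other side of 1. Iglc1 did not differ beyond counting error (0.928, 0.763 to 1.13). Ighg1 had 1 UMI in diabetic and 15 UMIs in normoglycemic cells.

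The genes of switched antibody were set by single cells. Igha was at 22.9 CPM in diabetic and 351 CPM in normoglycemic cells (0.0651, 0.0430 to 0.0947), but 1 normoglycemic cell held 945 of the 1013 UMIs. That cell had 6.28% of its UMIs from the 10 genes, 359 Jchain UMIs and all 20 secretory program genes. Ighg2b was at 228 CPM in diabetic and 420 CPM in normoglycemic cells (0.542, 0.474 to 0.618), with 149 of 279 diabetic and 988 of 1212 normoglycemic UMIs in 1 cell each. Without the leading cell of each library, the log2 ratio of Ighg2b turned to 0.47 and that of Igha shrank to -0.33. Jchain was at 49.8 CPM in diabetic and 251 CPM in normoglycemic cells (0.198, 0.150 to 0.258), but 2 normoglycemic cells held 359 and 268 of the 724 UMIs. Without the cells over 5%, Jchain was at 49.98 CPM in diabetic and 31.3 CPM in normoglycemic cells (1.60, 1.13 to 2.24). A Jchain UMI was found in 6.11% of diabetic (3.09 to 10.7) and 4.17% of normoglycemic Cd79a cells (2.40 to 6.68). For Ighm, 1 normoglycemic cell in a macrophage-like cluster held 868 of 3979 UMIs, and the log2 ratio without the leading cells was -0.56, against -0.84 with them.

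Around the antibody genes, most B cell genes were lower in the diabetic library, but by less than 1.5-fold. Of 16 B cell identity genes, 0 were at least 1.5-fold higher and 2 lower, with a median log2 ratio of -0.24, against -0.07 over all genes. Pax5 (0.683, 0.572 to 0.812) and Cd79b (0.745, 0.652 to 0.849) were among those lower by less. Bach2, a repressor of plasma cell differentiation, was the lowest of them, at 56.4 CPM in diabetic and 130 CPM in normoglycemic cells (0.432, 0.329 to 0.560), whereas Cd79a itself was at 1306 and 1485 CPM (0.879, 0.830 to 0.931). Of 13 measured genes of class switching and germinal centres, 1 was higher and 2 lower. The higher one was Mki67, a gene of dividing cells, at 90.7 CPM in diabetic and 40.6 CPM in normoglycemic cells (2.23, 1.71 to 2.92). Fas, a death receptor of activated B cells, was among the lower ones, at 35.1 CPM in diabetic and 68.3 CPM in normoglycemic cells (0.514, 0.361 to 0.718). Of 17 measured secretory program genes 1 was higher and 3 lower, among them Prdm1, the plasma cell transcription factor (0.535, 0.312 to 0.877). Of 8 measured genes of IgA and mucosal homing 0 were higher and 3 lower, among them Tgfb1, a signal for switching to IgA, at 160 and 285 CPM (0.561, 0.478 to 0.656). Tgfb1 and Fas were not lower in Cd79a cells alone. In cells without a Cd79a UMI and outside the B cell cluster their ratios were 0.568 (0.557 to 0.580) and 0.610 (0.590 to 0.630). Bach2 (0.820), Prdm1 (0.858) and Mki67 (1.27) were closer to 1 there.

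The genes that differed most in Cd79a cells were largely not B cell genes. Higher in the diabetic library were Wfdc12 (266 UMIs in diabetic and 0 in normoglycemic cells), Col3a1, a fibroblast collagen (418 and 2), Dcpp2 (169 and 0), the chemokine Ccl11 (149 and 0) and Dcpp3 (201 and 1). Lower were Ccl21a, a chemokine of lymphatic vessels (0 UMIs in diabetic and 501 in normoglycemic cells), the macrophage protease Mmp12 (2 and 245), Cd209a of dendritic cells (1 and 145), Igha (28 and 1013) and Cstdc5 of neutrophils (4 and 146). Fibroblast-like cells numbered 259 in the diabetic and 19 in the normoglycemic library, and secretory epithelial-like cells 138 and 12. Their part in these differences was not tested.

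In cells without a Cd79a UMI and outside the B cell cluster, Igkc was found at low levels in every class of at least 100 cells. As in the antibody-dominated cells, Igha and Jchain were higher in the diabetic and Ighg2b in the normoglycemic library. These 10067 diabetic and 10557 normoglycemic cells had median depths of 4628 and 5315 UMIs. Of the 3 genes with at least 10 CPM, 2 were at least 1.5-fold higher in the diabetic library (Igkc and Igha) and 1 was lower (Ighm), where 9.61% of 7408 genes were higher and 5.55% lower. The median log2 ratio of the 3 genes was 0.73, against 0.06 over all genes. Igkc was at 22.7 CPM in diabetic and 13.7 CPM in normoglycemic cells (ratio 1.65, 1.54 to 1.78). Igha was at 13.5 and 2.08 CPM (6.48, 5.52 to 7.64) and Jchain at 3.84 and 0.326 CPM (11.8, 7.99 to 18.1). Ighg2b ran the other way, with 5 UMIs in diabetic and 189 in normoglycemic cells (0.0298, 0.00957 to 0.0708). The share of cells with an Igha UMI was 9.18% in diabetic and 0.834% in normoglycemic cells, and 1.73% and 0.116% after every cell was thinned to 1000 UMIs.

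The direction was the same across named classes, as the plot of levels by class shows. Among named classes with at least 100 cells in both libraries and enough counts, Igkc was higher in the diabetic library in 7 of 7, Igha in 7 of 7 and Jchain in 5 of 5, and Ighg2b in 0 of 4. The interval of the ratio lay above 1 in 5 of 7 classes for Igkc, 6 of 7 for Igha and 5 of 5 for Jchain. For Ighg2b it lay below 1 in 1 of 4. The classes come from the same libraries and are not replicates of a condition. Neutrophil-like cells, the most numerous class and one that does not make antibody, had Igkc at 39.1 CPM in diabetic and 21.1 CPM in normoglycemic cells and Igha at 19.2 and 0.376 CPM (51.1, 26.6 to 113). Jchain was at 7.29 and 0.542 CPM there, and Ighg2b at 0 in 4826 diabetic cells, which allows up to 0.171 CPM, and at 3.21 CPM in normoglycemic cells. Per 100 Igkc UMIs, diabetic background cells had 16.9 Jchain UMIs, where the dominated cells had 17.1, and normoglycemic background cells 2.37, where the dominated cells had 5.53. Igha was at 59.4 per 100 Igkc UMIs in diabetic background cells and 31.2 in the dominated cells, and Ighg2b was at 16.02 in normoglycemic background cells and 40.6 in the dominated cells. Whether the UMIs of Igkc, Igha, Jchain and Ighg2b in these classes came from free RNA or from expression was not tested.

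**Figure D4:**
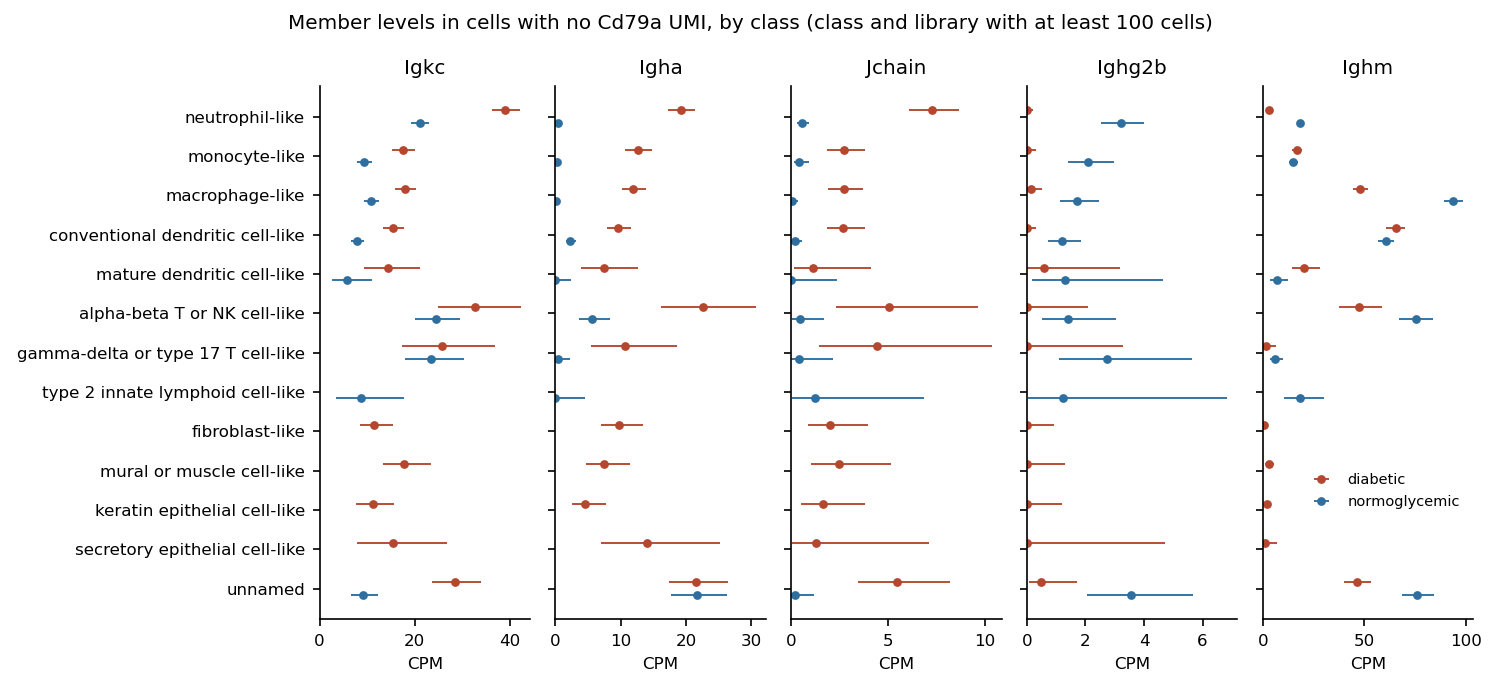
Each panel gives the level of 1 gene in counts per 1000000 UMIs (CPM) by class, in cells without a Cd79a UMI, diabetic (red, upper) and normoglycemic (blue, lower), with exact Poisson 95% intervals and only for sets of at least 100 cells. Igkc, Igha and Jchain lie higher and Ighg2b lower in diabetic neutrophil-like cells, whereas Ighm spans 0.501 to 65.5 CPM between diabetic classes.

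Ighm did not follow this pattern. It was at 27.1 CPM in diabetic and 45.6 CPM in normoglycemic background cells (0.594, 0.563 to 0.627), but varied strongly between classes. Conventional dendritic cell-like cells had 65.5 CPM in the diabetic and 60.7 CPM in the normoglycemic library, macrophage-like cells 48.1 and 94.0 CPM and alpha-beta T or NK cell-like cells 47.4 and 75.4 CPM. Neutrophil-like cells had 2.85 and 18.6 CPM, and fibroblast-like cells of the diabetic library 0.501 CPM. The share of cells with an Ighm UMI was 41.2% in diabetic and 44.9% in normoglycemic dendritic-like cells, 27.1% and 49.0% in macrophage-like cells and 0.912% and 6.51% in neutrophil-like cells. Median depths were 15336.5 and 17024 UMIs in dendritic-like, 10537 and 11775 UMIs in macrophage-like and 3416 and 3988 UMIs in neutrophil-like cells. Ighd, which naive B cells express beside Ighm, was at 0.223 and 0.512 CPM over all background cells. No single cell of these classes held more than 21 Ighm UMIs.

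Part of the background counts of Igha and Iglc3 lay in few cells. In the normoglycemic library, 101 of 179 background Igha UMIs (56.4%) lay in 1 unnamed cluster led by Cd207, the gene of langerin on Langerhans cells and some dendritic cells, Mfge8 and H2-M5. An Igha UMI was found in 7 of 13 diabetic cells (53.8%, 25.1 to 80.8) and 35 of 55 normoglycemic cells (63.6%, 49.6 to 76.2) of that cluster, at 59.6 and 112 CPM, beside only 6 Igkc UMIs in each library and 0 of Jchain. The cells had up to 4 diabetic and up to 10 normoglycemic Igha UMIs. For Iglc3, 8 diabetic and 5 normoglycemic dendritic-like cells with at least 3 UMIs each held 63 of 70 and 51 of 57 background UMIs. All of them had UMIs of Siglech, a receptor of plasmacytoid dendritic cells, against 9.07% of the other diabetic and 6.51% of the other normoglycemic dendritic-like cells. They had a median of 6.5 and 7 of 8 plasmacytoid dendritic cell markers, where the others had 2 and 2. This cluster and these cells were singled out after their values were seen.

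**Figure D5:**
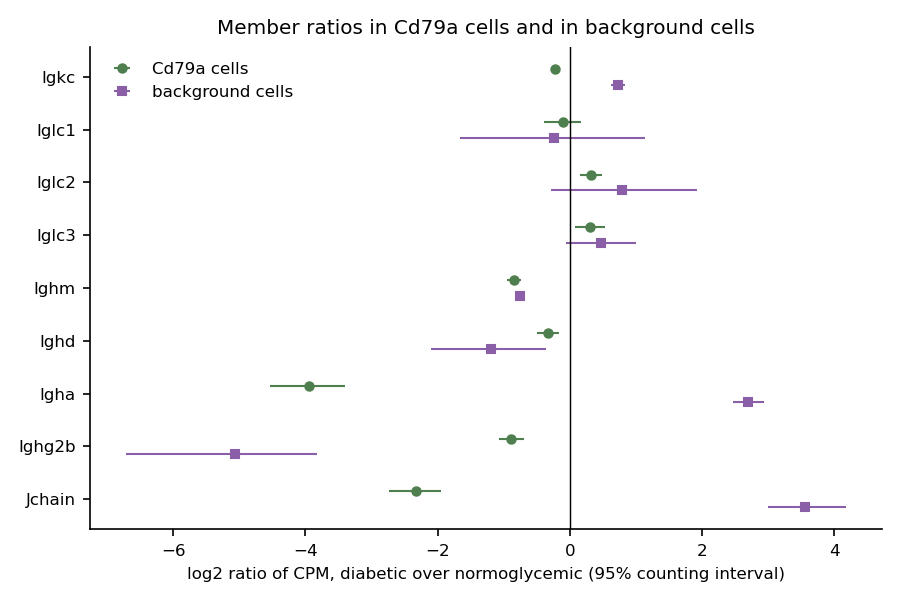
Points give the log2 ratio of CPM, diabetic over normoglycemic, for 9 of the 10 genes (Ighg1 had too few UMIs) in Cd79a cells (circles) and in background cells (squares), with 95% counting intervals. Values above 0 are higher in the diabetic library. Igkc, Igha and Jchain lie below 0 in Cd79a cells and above 0 in background cells, while Ighm and Ighg2b lie below 0 in both, Ighg2b in Cd79a cells only with the leading cells kept. The Cd79a values of Igkc and Jchain also lie below 0 only with the cells over 5% kept.

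Set side by side in the plot of ratios, Igkc, Igha and Jchain were lower in diabetic Cd79a cells but higher in diabetic background cells. In Cd79a cells this rested on few normoglycemic cells, 1 for Igha and 2 for Jchain, and the log2 ratios without the cells over 5% were 0.22 for Igkc, -0.14 for Igha and 0.68 for Jchain. The share of Cd79a cells with a UMI was not lower in the diabetic library for any of the 3: it was 88.3% in diabetic (82.7 to 92.6) and 84.1% in normoglycemic cells (80.1 to 87.6) for Igkc, and 11.7% (7.37 to 17.3) and 3.39% (1.81 to 5.72) for Igha. After thinning to 1000 UMIs, an Igha UMI was found in 1.67% of diabetic and 1.32% of normoglycemic Cd79a cells. Among genes of IgA transport and of homing or survival of plasma cells, 11 were measured in background cells, of which 4 were at least 1.5-fold higher and 2 lower. Cxcr4, the receptor for Cxcl12 and the gene of this list with most UMIs, was among the lower ones, at 206 CPM in diabetic and 324 CPM in normoglycemic cells (0.637, 0.625 to 0.649). Pigr, the transporter of polymeric IgA, was at 17.2 CPM in diabetic and 2.54 CPM in normoglycemic cells (6.77, 5.87 to 7.85). Cxcl12, a chemokine that holds plasma cells, was at 41.8 and 3.79 CPM (11.03, 9.84 to 12.4). Il6, a cytokine that sustains plasma cells, was at 130 and 58.7 CPM (2.22, 2.15 to 2.30), and Tnfsf13b, the gene of the B cell survival factor BAFF, at 10.2 and 6.61 CPM (1.54, 1.38 to 1.72). Epithelial and stromal cells were also more numerous in the diabetic library, as given above, and their part in these levels was not tested.

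Over the sums of each class in each library, 34 points in all, the genes whose levels most resembled the summed 10 genes were Mzb1 (Pearson r 0.914 of log2 CPM), Eaf2 (0.904), Nuggc (0.898), Gm30211 (0.889) and 2010309G21Rik (0.888), of 14762 genes compared. For Jchain alone they were Nuggc (0.940), Mzb1 (0.924), Eaf2 (0.923), 2010309G21Rik (0.911) and Gm30211 (0.890). Points of 1 library share its depth and any free RNA, and Gm30211 and 2010309G21Rik overlap the antibody genes, so these values are descriptions.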

How the data were processed

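The deposited values were raw UMI counts per gene and cell, made by the authors with Cell Ranger. The file headers give its version as 4.0.0. Per the submitters' processing notes it was 6.0.2, with build mm10. An annotation release is not given in the sources used here. Kits were Chromium single-cell 3′ v3 per the labels. The 4 antibody capture features were kept apart. Cells needed at least 500 UMIs, 200 genes and at most 15% mitochondrial UMIs. Both libraries were clustered together (Scanpy 1.11.5, leidenalg 0.10.2, Python 3.11.15) on 2000 variable genes without antigen receptor genes, 30 components, 15 neighbours and resolution 1. That gave 31 clusters, of which 4 stayed unnamed. A name needed 3 markers in at least 20% of cells and no more leading markers of another class than of its own. Clusters with 3 or more cell cycle or histone genes among their leading genes were left unnamed. The same held for shallow clusters without a leading marker of their own class. Scrublet marked 0 diabetic and 2 normoglycemic cells where 8.21% and 8.76% were expected, so it had not worked, and no doublets were removed.

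Light chain calls needed 2 UMIs and 80% purity, as heavy chain calls did. Variable segments needed 10 UMIs and 60% of the cell's segment UMIs. Levels were UMI sums per 1000000 UMIs (Poisson intervals), ratios diabetic over normoglycemic (conditional binomial intervals), and shares used Clopper-Pearson intervals (SciPy 1.17.1). The limit given for a level of 0 CPM was 3 counts. Genes counted as higher or lower at a point ratio of 1.5 with at least 10 CPM in either library. One scaling alternative used TMM factors from edgeR 4.0.16, without a test. The intervals were tested on simulated counts. Named genes were all 10; up to 5 per direction in Cd79a cells with 50 CPM, 50 counts and an interval beyond 1.5-fold; the 10 leading in dominated over Cd79a cells in both libraries; the 5 most alike by correlation; and listed genes of high CPM, to which Bach2, Fas, Prdm1, Derl3, Tnfrsf17, Txndc5, Pigr, Cxcl12 and Tnfsf13b were added after their values were seen. The genes and lists were chosen with earlier results of these data known. Alternatives varied thresholds, filters, call rules, scaling and single cells.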

Additional observations from a re-analysis of the deposited data

Results flagged for a closer look

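For 3 genes the diabetic over normoglycemic ratio pointed one way in background cells and the other way in Cd79a cells. Igkc had a ratio of 1.65 in background cells and 0.859 in Cd79a cells, Igha 6.48 and 0.0651, and Jchain 11.8 and 0.198. The difference between the sets was not tested, since each condition had 1 library. The Cd79a values rest on few normoglycemic cells, 1 with 945 of 1013 Igha UMIs and 2 with 359 and 268 of 724 Jchain UMIs. Without the Cd79a cells that had over 5% of UMIs from antibody genes, the log2 ratios were 0.22 for Igkc, -0.14 for Igha and 0.68 for Jchain, so Igkc and Jchain then pointed the same way in both sets.

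The 4 antibody capture features, which no comparison used and which the labels do not describe, held counts: 250351 UMIs in the diabetic and 700188 UMIs in the normoglycemic library. The cells with over 20% of UMIs from antibody genes had 1 to 9 of these UMIs each in the diabetic and 1 to 8 in the normoglycemic library.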

How the results depend on the processing

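No paired analysis was possible because each condition had 1 library. Over thresholds of 5% to 40%, other cell filters and leukocytes alone as denominator, antibody-dominated cells made up 0.0975% to 0.133% of diabetic and 0.0266% to 0.0639% of normoglycemic cells. Under every call rule tried, those over 20% were all IgA in the diabetic and IgG2b in the normoglycemic library. At the 5% threshold this split had exceptions. The added diabetic cell was IgM or IgD, and the added normoglycemic cells included IgM or IgD and IgA beside IgG2b. The share of Cd79a cells was 1.57% in diabetic and 2.92% in normoglycemic cells with at least 2 Cd79a UMIs, 1.57% and 2.90% with a second B cell gene, and 1.37% and 2.61% after thinning to 1000 UMIs, lower in the diabetic library each time. At 95% purity, IgM or IgD was called in 82.3% of diabetic and 91.98% of normoglycemic Cd79a cells. Genes higher in diabetic Cd79a cells numbered 820 with the 10 CPM minimum, 3390 without one and 157 at 50 CPM, and genes lower 1275, 4526 and 406. Of the alternatives chosen after seeing the data, leaving out the cell with the most UMIs of a gene in each library, left 1 of 4 antibody genes lower by 1.5-fold and gave Ighg2b a log2 ratio of 0.47, where it was -0.88 with all cells. Leaving out the Cd79a cells with over 5% of UMIs from the 10 genes gave 2 genes higher and 1 lower, with log2 ratios of 0.22 for Igkc, 1.79 for Ighg2b and 0.68 for Jchain, where they were -0.22, -0.88 and -2.33 with all cells. Few cells limit every isotype share: 3 normoglycemic dominated cells allow an IgG2b share as low as 29.2%. The pooled mice could not be separated, and free antibody RNA, which was not tested for, would limit what a single UMI shows.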

Other observations

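Other constant region genes, which were not part of the set, were rare. Ighg2c had 38 UMIs and Ighg3 19 UMIs in 1 diabetic antibody-dominated cell each and 0 in the normoglycemic ones. In Cd79a cells Ighg2c had 2 UMIs in each library, Ighg3 had 1 UMI in the diabetic and 2 in the normoglycemic library, and Ighe had 0 in both.

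A cell cluster led by the cytotoxic genes Xcl1 and Gzma also carried Igha, in 21 of 139 diabetic cells (15.1%, 9.60 to 22.2) and 15 of 194 normoglycemic cells (7.73%, 4.40 to 12.4), with 27 and 21 UMIs. Its median depth was 5539 UMIs in the diabetic and 6295 UMIs in the normoglycemic library.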
